A study of Mus musculus with 18 samples.

Results

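The 35 genes described here mark the segments of the nephron, the filtering and transporting unit of the kidney. They were taken as a list of gene symbols: 4 of podocytes, 15 of the proximal tubule, 3 of the loop of Henle, 5 of the distal convoluted and connecting tubule, 5 of the principal cells of the collecting duct and 3 of its intercalated cells. Every one of the 35 was found among the 24062 symbols of the count table, and every one passed the filter on low counts in kidney. The kidney libraries came from whole tissue of C57BL/6 mice, 3 from animals with a Ccne1 transgene that doxycycline switches on through rtTA (CCNE-TA) and 3 from animals with rtTA but no such transgene (TA). Both groups therefore carried rtTA, and both received doxycycline from 3 weeks of age until the tissues were taken at 4 months. The promoter that drives rtTA and the number of founder lines are not given in the sources used here. Liver and lung libraries of the same groups, 3 of each kind, served as background, which makes 18 libraries in all.

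A nephron begins at the glomerulus, where podocytes hold back plasma proteins. The proximal tubule then takes back most of the filtered sodium, glucose, phosphate and amino acids, and secretes organic anions from the blood. The loop of Henle dilutes the filtrate, the distal tubule adjusts sodium, calcium and magnesium, and the collecting duct sets the final content of water, potassium and acid under the control of vasopressin and aldosterone. In whole tissue, fewer cells of a type and less RNA per cell cannot be told apart.

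Kidney libraries held 20352770 to 43202066 counts, so that 3 counts corresponded to 0.0723 to 0.137 CPM (counts relative to library size, scaled by the TMM factors of edgeR within each tissue). Cyclin E1 transcript stood at 718 ± 211 CPM in CCNE-TA kidneys and at 2.05 ± 0.505 CPM in TA kidneys (SD, n = 3 per group, as for all values with an SD here). These counts do not separate the transgene from the mouse's own gene. Number 3 of each genotype stood apart from the others. Both held Y-linked transcripts (summed Ddx3y, Eif2s3y, Kdm5d and Uty of 74.1 and 94.8 CPM) with Xist at 1.54 and 2.73 CPM, while the other 4 kidneys held Xist at 575 to 1243 CPM and Y-linked sums of at most 0.266 CPM. Of the 15247 genes tested in kidney, 2 passed an edgeR adjusted p of 0.05, which is 0.0131% of them.

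The markers were mostly kidney transcripts in these tissues. In 27 of the 35, the lowest kidney library lay above the highest liver or lung library, which was the case for 15.6% of all tested genes; the genes had been listed as kidney markers, so this describes the list. Per kilobase of transcript, the highest TA kidney levels were those of Kap, an androgen-regulated transcript of the proximal tubule, at 58280 ± 27600 RPKM (CPM per kilobase of merged exons), and of Miox, the inositol-degrading oxygenase, at 1916 ± 419 RPKM. The phosphate transporter Slc34a1 followed at 864 ± 346 RPKM, the urinary glycoprotein uromodulin (Umod) at 847 ± 239 RPKM and the water channel Aqp2 at 382 ± 121 RPKM. At the low end stood Wt1, a transcription factor of podocytes, at 2.83 ± 1.02 RPKM. Kap alone made up 1.46% to 5.77% of all counts of a kidney library. The 8 exceptions were the podocyte genes Podxl and Synpo, the water channel Aqp1, the magnesium channel Trpm6, the sodium channel subunits Scnn1b and Scnn1g, the proton pump subunit Atp6v0d2 and the anion exchanger Slc26a4. The highest of the 18 libraries was a lung for 6 of these 8 and a kidney for Trpm6 and Slc26a4.

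There are 3 pairs of neighbours among the members. Slc22a8 and Slc22a6, which encode the organic anion transporters OAT3 and OAT1 of the basolateral membrane, lie next to each other on chromosome 19, and 6203 bases separate them in GENCODE M21 on mm10. Scnn1g and Scnn1b, subunits of the epithelial sodium channel, lie 96562 bases apart on chromosome 7, and Slc7a13 and Atp6v0d2 lie 34622 bases apart on chromosome 4. The promoters of Slc22a8 and Slc22a6 and that of Kap are shown because these proximal genes had the lowest CCNE-TA to TA ratios of their segment. Each run covers 250 bases before and 50 after the start, 5′ to 3′ on the strand of the gene, from RefSeq on GRCm38.p6. Capitals mark the letters GTTAAT, part of the site bound by the tubule factor HNF1, searched on both strands.

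Slc22a8 promoter, chr19:8592932-8593231, plus strand: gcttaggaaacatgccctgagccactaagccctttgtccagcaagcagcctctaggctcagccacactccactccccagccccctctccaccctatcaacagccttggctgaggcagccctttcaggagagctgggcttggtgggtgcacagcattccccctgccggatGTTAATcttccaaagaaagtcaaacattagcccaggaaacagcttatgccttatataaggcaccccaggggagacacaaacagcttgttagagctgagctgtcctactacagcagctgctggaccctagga

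Slc22a6 promoter, chr19:8617746-8618045, plus strand: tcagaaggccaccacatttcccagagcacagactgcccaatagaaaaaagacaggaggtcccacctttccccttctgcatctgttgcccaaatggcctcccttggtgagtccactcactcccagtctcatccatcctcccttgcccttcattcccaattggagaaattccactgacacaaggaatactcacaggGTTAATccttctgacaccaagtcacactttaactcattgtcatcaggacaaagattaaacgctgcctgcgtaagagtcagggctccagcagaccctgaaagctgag

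Kap promoter, chr6:133853618-133853917, minus strand: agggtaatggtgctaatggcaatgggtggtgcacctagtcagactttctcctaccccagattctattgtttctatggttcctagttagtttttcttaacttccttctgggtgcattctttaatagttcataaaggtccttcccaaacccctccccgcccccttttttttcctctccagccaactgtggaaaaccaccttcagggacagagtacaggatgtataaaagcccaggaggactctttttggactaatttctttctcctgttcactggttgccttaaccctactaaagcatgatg

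The promoter table held 25 of the 35 members. GTTAAT occurred in the promoters of 4 of the 11 proximal members found there (Slc34a1, Slc22a6, Slc22a8 and Miox), in those of Umod and Atp6v1g3, and in 8.24% of all 27025 genes with a promoter. The letters AGAACA, part of the site bound by the androgen receptor, occurred on either strand in 1 of the 11 proximal members, Slc34a1, and in 21.3% of all genes. A match describes these letters only.

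The comparison between genotypes asked whether raised cyclin E1 went along with other levels of segment markers in the kidney. None of the 35 members passed the edgeR test over all genes (adjusted p = 0.999 for each). Of the 35 log2 fold changes, CCNE-TA minus TA, 26 were negative (74.3%), against 49.3% of all tested genes. Their median was -0.15, beside 0.004 over all tested genes. These values moved with single libraries: 19 of 35 were negative without CCNE-TA 1 or without TA 2 (median -0.06 in each case), and 30 were negative without CCNE-TA 2 (median -0.31). Medians by segment were -0.58 for the distal convoluted and connecting tubule, -0.29 for the proximal tubule, -0.27 for the loop, -0.15 for intercalated cells, -0.03 for principal cells and 0.09 for podocytes. The proximal median was -0.67 without CCNE-TA 3 and -0.17 without CCNE-TA 1, and the podocyte median turned to -0.21 without CCNE-TA 2 and to -0.05 without TA 1.

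**Figure D1:**
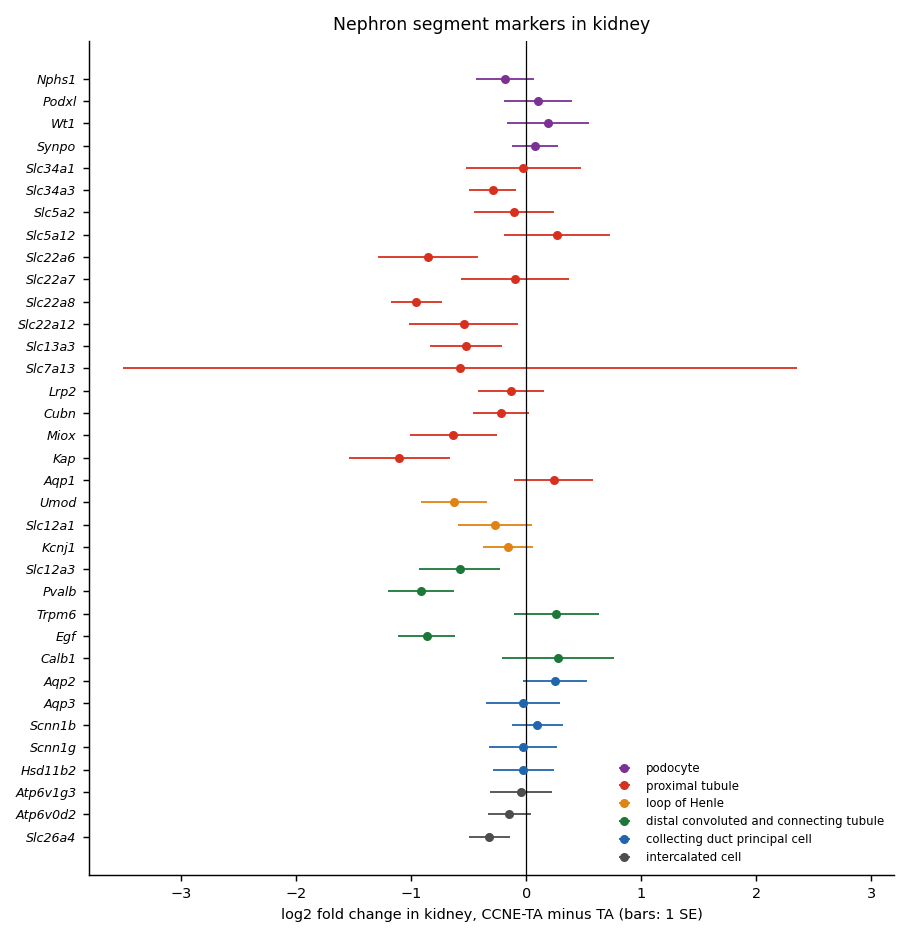
Log2 fold change of each of the 35 markers in kidney, CCNE-TA minus TA, with bars of 1 SE from the edgeR fit and colours for the segments (n = 3 libraries per group). The lowest values are those of Kap (-1.10), Slc22a8 (-0.95), Pvalb (-0.91) and Egf (-0.87), and the widest bar is that of Slc7a13 (SE 2.93).

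An unadjusted edgeR p under 0.05 with a lower level in CCNE-TA was found for 4 members (11.4%, against 0.682% of all tested genes), and one with a higher level for 0 (against 1.44%). They were Slc22a8, Egf, Pvalb and Kap. Slc22a8 stood at 810.3, 761.8 and 646.6 CPM in CCNE-TA kidneys 1, 2 and 3 and at 1372, 1382 and 1548 CPM in TA kidneys 1, 2 and 3. The groups did not overlap, and the means of 739.6 ± 84.1 and 1434 ± 98.9 CPM differed by more than either SD. The log2 fold change was -0.95 ± 0.22 (SE; edgeR unadjusted p = 0.00189, adjusted p = 0.999). DESeq2 gave the same gene an adjusted p of 0.00124, the only member it called of 34 with an adjusted p. DESeq2 called 0.0209% of all genes as lower and 0.115% as higher.

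Its neighbour Slc22a6 stood at 219, 238 and 391 CPM in CCNE-TA and at 279, 365 and 891 CPM in TA, so that the groups overlapped. The log2 fold change was -0.86 ± 0.44, and it was -0.19 without TA 3, the library with the highest level. Other transporters of the same family showed smaller values. Slc22a12, the urate transporter URAT1, had -0.54 ± 0.47, with 30.1% of its exon bases shared with Nrxn2 on the other strand. Slc22a7, the transporter OAT2, had -0.10 ± 0.47. The kit does not mark the strand, so reads of such shared bases cannot be assigned to one gene. Antisense genes also share 19.5% of the exon bases of Umod, 9.02% of those of Nphs1, 5.38% of those of Egf and 2.46% of those of Cubn.

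Kap stood at 13570, 15130 and 28870 CPM in CCNE-TA kidneys 1, 2 and 3 and at 34840, 25670 and 63110 CPM in TA kidneys 1, 2 and 3. CCNE-TA 3 lay above TA 2, so the groups overlapped, but each CCNE-TA kidney was lower than the TA kidney of its own number. The means were 19190 ± 8419 and 41200 ± 19510 CPM, with a log2 fold change of -1.10 ± 0.44 (edgeR unadjusted p = 0.033, adjusted p = 0.999). The log2 fold change was -0.66 without TA 3 and -1.52 without CCNE-TA 3.

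Egf encodes the precursor of epidermal growth factor, made in the thick ascending limb and the distal convoluted tubule. It stood at 495, 504 and 426 CPM in CCNE-TA and at 824, 1107 and 667 CPM in TA, and the groups did not overlap. The log2 fold change was -0.87 ± 0.25 (edgeR unadjusted p = 0.00714, adjusted p = 0.999). Pvalb, the calcium buffer parvalbumin of the early distal convoluted tubule, stood at 29.5, 37.6 and 23.1 CPM in CCNE-TA and at 53.1, 78.9 and 38.1 CPM in TA. These groups were separate by less than 1 CPM, between CCNE-TA 2 and TA 3, and the log2 fold change was -0.91 ± 0.29 (edgeR unadjusted p = 0.0115, adjusted p = 0.999). Slc22a8, Egf and Pvalb were thus the 3 members without overlap and lower in CCNE-TA (8.57%, against 2.68% of all tested genes), and 0 members were higher without overlap (against 3.03%).

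**Figure D2:**
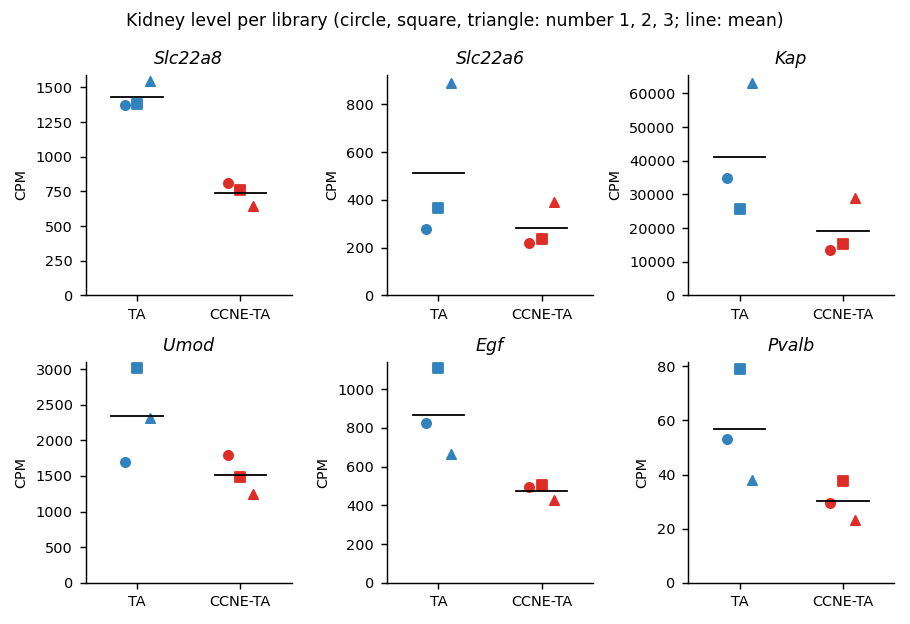
Level in each kidney library in CPM, on axes that start at 0, for 6 markers, with TA in blue, CCNE-TA in red, the library number as the symbol and the group mean as a line (n = 3 per group). Slc22a8, Egf and Pvalb do not overlap between genotypes, while Umod in CCNE-TA 1 (1801 CPM) lies above TA 1 (1696 CPM).

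Libraries of the same number deviated together. The correlation of their deviations over genes was 0.459 for number 1, 0.647 for number 2 and 0.457 for number 3, so values are also given within numbered pairs. The labels do not say what a number marks, so this pairing rests on the same libraries as the values within it. Pair 3 holds the kidneys with Y-linked transcripts. Of the members, 14 were lower in CCNE-TA in all 3 pairs (40%), against 14% of all tested genes, and 2 were higher in all 3 pairs (5.71%), against 13%. The 14 were Nphs1, 8 proximal genes (Slc34a3, Slc22a6, Slc22a8, Slc22a12, Slc13a3, Cubn, Miox and Kap), Slc12a1, Slc12a3, Pvalb, Egf and Slc26a4. The 2 were Slc5a12, a lactate transporter, and Aqp1. With the replicate number as a block, 12 members had an unadjusted p under 0.05 with a lower level (34.3%, against 2.62% of all genes) and 1 with a higher level (against 2.69%). None passed the adjusted threshold: the lowest edgeR adjusted p were 0.196 for Kap (log2 fold change -1.08 ± 0.14) and 0.219 for Slc22a8 (-0.96 ± 0.13), and those of Pvalb and Egf were 0.256 and 0.286.

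Among the remaining proximal genes, the phosphate, glucose and protein uptake genes differed little between genotypes. Slc34a1 had a log2 fold change of -0.03 ± 0.50, the glucose transporter gene Slc5a2 (SGLT2) had -0.11 ± 0.35, and the endocytic receptor genes Lrp2 (megalin) and Cubn (cubilin) had -0.13 ± 0.28 and -0.22 ± 0.25. Each of these was smaller than its SE, and genes on the other strand share 11.7% of the bases of Slc34a1 and 20.6% of those of Slc5a2. Slc34a3, the second phosphate transporter, had -0.29 ± 0.21. Slc13a3, which carries dicarboxylates, had -0.53 ± 0.31 and Miox -0.63 ± 0.38. Miox stood at 999, 2519 and 2592 CPM in CCNE-TA and at 2456, 3196 and 3837 CPM in TA, lowest in CCNE-TA 1. Slc5a12 (0.27 ± 0.46) and Aqp1 (0.24 ± 0.34) were the proximal genes with positive values.

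In the loop, Umod stood at 1801, 1486 and 1247 CPM in CCNE-TA and at 1696, 3014 and 2312 CPM in TA. Its log2 fold change was -0.63 ± 0.29 (edgeR unadjusted p = 0.0556), and the groups overlapped through number 1. The sodium-potassium-chloride cotransporter gene Slc12a1 (-0.27 ± 0.32) and the potassium channel gene Kcnj1 (-0.16 ± 0.22) had smaller values, also with overlap. Averaged over the 3 loop genes, the log2 deviation from the TA mean was -0.006, -0.39 and -0.68 in CCNE-TA kidneys 1, 2 and 3 and -0.02, 0.06 and -0.04 in TA kidneys. The loop median was -0.60 without CCNE-TA 1 and -0.12 without CCNE-TA 3.

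Distal genes did not move as one. Besides Egf and Pvalb, the thiazide-sensitive cotransporter gene Slc12a3 had -0.58 ± 0.35. It stood at 609, 461 and 521 CPM in CCNE-TA, and at 1274 CPM in TA 1 against 575 and 529 CPM in TA 2 and TA 3, so that TA 1 alone was high. Without TA 1 the median of the 5 distal genes was -0.06 instead of -0.58. Trpm6 (0.26 ± 0.37) and the calcium buffer gene Calb1 (0.27 ± 0.49) had positive values. Calb1 followed the library number: it was at 506 CPM in CCNE-TA 2 and at 417 CPM in TA 2, while the other 4 kidneys ranged from 156 to 238 CPM.

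Principal cell genes were the closest to no difference. Aqp3 and Hsd11b2, the enzyme that shields the mineralocorticoid receptor from glucocorticoids, had log2 fold changes of -0.03 ± 0.32 and -0.03 ± 0.27, Scnn1g had -0.03 ± 0.30 and Scnn1b 0.10 ± 0.22. Aqp2 stood at 645 ± 107 against 542 ± 172 CPM (0.25 ± 0.28). In intercalated cells, Slc26a4 (pendrin) had -0.32 ± 0.18 and was lower in CCNE-TA in each pair by a similar ratio (0.8196, 0.7875 and 0.8001). The proton pump genes Atp6v1g3 and Atp6v0d2 had -0.04 ± 0.27 and -0.15 ± 0.19. Podocyte values were also near 0: the slit diaphragm gene Nphs1 (nephrin) had -0.19 ± 0.25, Podxl 0.10 ± 0.30, Wt1 0.19 ± 0.36 and the actin-binding Synpo 0.07 ± 0.20. Leaving out Slc7a13, the SE ranged from 0.18 (Slc26a4) to 0.50 (Slc34a1). Log2 differences of that size were not detectable in these libraries, and a larger one, -0.95 for Slc22a8, did not pass the edgeR test either. A value near 0 therefore does not exclude a difference.

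Segments were also set against each other within each library, as the mean log2 deviation from the TA mean minus that of the principal cell genes. For proximal genes this was -0.65, -0.66 and 0.31 in CCNE-TA kidneys 1, 2 and 3 and -0.32, -0.06 and 0.38 in TA kidneys 1, 2 and 3. For distal genes it was -0.30, -0.51 and -0.29 in CCNE-TA and 0.47, 0.17 and -0.64 in TA. For loop genes it was 0.20, -0.77 and -0.62 in CCNE-TA and 0.23, 0.02 and -0.24 in TA. For podocyte genes it was 0.07, 0.12 and -0.21 in CCNE-TA and -0.02, 0.34 and -0.33 in TA. For intercalated cell genes it was -0.07, -0.37 and -0.15 in CCNE-TA and -0.06, 0.22 and -0.15 in TA. The genotypes overlapped in each contrast. The proximal mean includes Slc7a13, for which the mean of number 3 was 220.5 times that of the other kidneys. This 1 gene raised the proximal values of number 3 in both genotypes. The positive values there therefore cannot be read as a trait of the whole segment, and the contrast without Slc7a13 is not given here. Within numbered pairs, the proximal and loop contrasts were lower in CCNE-TA in 3 of 3 pairs, and the distal contrast in 2 of 3. The loop contrast was nearly level in pair 1 (0.20 against 0.23), as was the proximal contrast in pair 3 (0.31 against 0.38). The podocyte contrast was lower only in pair 2, and the intercalated contrast was nearly level in pairs 1 and 3 and lower in pair 2.

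Further markers of the same segments were listed apart from the members. None of the 86 tested passed the edgeR test, their median log2 fold change was -0.12 and 59 were negative (68.6%, against 49.3% of all tested genes). Their medians were -0.13 in the distal and -0.08 in the proximal tubule, against -0.58 and -0.29 for the members. An unadjusted edgeR p under 0.05 with a lower level was found for 0 of the 86, against 0.682% of all tested genes. With the replicate block it was found for 7 (8.14%, against 2.62%). The difference between the 2 lists was not tested. Without the block, Cyp27b1, the enzyme that activates vitamin D, was the only one with an unadjusted edgeR p under 0.05. This 1 gene, higher in CCNE-TA, was 1.16% of the 86, against 1.44% of all tested genes. It stood at 26.3 ± 15.1 CPM in CCNE-TA against 8.19 ± 5.28 CPM in TA (log2 fold change 1.67 ± 0.51, edgeR adjusted p = 0.999). The distal kallikrein gene Klk1 stood at 3067 ± 562 against 4473 ± 1295 CPM. Log2 fold changes with the lowest p in other segments were -0.37 for the calcium sensor Casr in the loop, 0.30 for Hoxb7 in principal cells and -0.38 for the pump subunit Atp6v1c2 in intercalated cells. Next by p came Cldn10 (-0.24), Aqp4 (0.30) and Slc4a9 (-0.34) in the same segments, and Slc6a20b (-0.39) and Kcnj10 (-0.53) in the proximal and distal tubule. The podocyte collagen gene Col4a4 had -0.16.

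Markers of other cells and states were read in the same libraries. Tubule injury genes summed to 7585 CPM in CCNE-TA 1 and to 1353 to 2816 CPM in the other 5 kidneys. Spp1 (osteopontin) alone made 7141 CPM of the first sum, and the other 7 genes summed to 444 CPM there, within the range of 314 to 492 CPM of the other kidneys. That sum hides opposite values, seen after the fact. Vcam1 (64.0 CPM), Lcn2 (19.2 CPM), Vim (198 CPM) and Sox9 (0.821 CPM) were highest in CCNE-TA 1. Clu was lowest there (119.7 against 126 to 292 CPM), while Havcr1 and Krt20 lay within the range of the other kidneys. Krt20, named after its values were seen, stood at 3.88, 3.41 and 6.95 CPM in CCNE-TA and at 1.69, 1.76 and 0.447 CPM in TA. The groups did not overlap (edgeR adjusted p = 0.999), and 3.03% of all tested genes were likewise higher in CCNE-TA without overlap. Cycling cell genes, led by Mki67, summed to 39.1 to 113 CPM in CCNE-TA and to 12.7 to 14.04 CPM in TA. Immune cell genes (6 of 7 listed were found, led by Csf1r) summed to 243 CPM in CCNE-TA 1 and to 130 to 173 CPM in the others, and urothelial genes, led by Upk3a, to 128 CPM in CCNE-TA 3 and to 43.1 to 69.98 CPM in the others. Endothelial genes, led by Plvap, ranged from 601 to 741 CPM in CCNE-TA and from 633 to 734 CPM in TA, and fibroblast and mural genes, led by Acta2, from 371 to 511 and from 340 to 378 CPM. Lung epithelial genes, led by Scgb1a1, summed to 21.5 to 36.5 CPM in CCNE-TA and 45.8 to 145 CPM in TA, hepatocyte genes, led by Alb, to 365 to 545 CPM, fat genes, led by Adipoq, to 37.8 to 92.4 CPM and adrenal genes, led by Star, to 3.56 to 6.53 CPM with 2 of 5 at 0. The part of these transcripts in the marker values was not tested. Without CCNE-TA 1, the log2 fold change was -1.02 for Slc22a8, -0.90 for Kap, -0.90 for Egf and -0.90 for Pvalb.

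The proximal marker Slc7a13 separated number 3 of both genotypes from the other kidneys. This gene, an amino acid transporter of the last proximal segment known to be male-biased in mice, reached 446 CPM in kidney CCNE-TA 3 and 672.5 CPM in kidney TA 3, while the other 4 kidneys ranged from 1.38 to 4.06 CPM, a ratio of 220.5 between the means. Its log2 fold change between genotypes was -0.58 ± 2.93. In number 3 of both genotypes, 4 members lay above every other kidney (11.4%, against 9.26% of all tested genes) and 2 lay below (5.71%, against 9.61%). Besides Slc7a13, the 4 were Slc34a1, Slc22a6 and Slc22a12, with ratios of 2.23, 2.33 and 2.07 between the means, and the 2 below were Slc22a7 and Nphs1. Over all members the shares were near the background. By segment, the 4 above were all proximal (4 of 15, 26.7%, against 9.26% of all tested genes). The 2 below were 1 proximal and 1 podocyte gene. The kidneys of number 3 differ from the others in number as well as in Y-linked transcripts, which cannot be told apart here.

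Slc22a7 differed in size between genotypes in this respect. TA 3 stood at 94.99 CPM, 0.242 times the mean of TA 1 and TA 2, while CCNE-TA 3 stood at 227 CPM, 0.762 times the mean of CCNE-TA 1 and CCNE-TA 2. For Slc7a13 the ratio was 377 in TA and 136 in CCNE-TA, for Slc22a6 it was 2.76 and 1.71, and for Slc22a12 it was 2.605 and 1.48. For Kap (2.09 and 2.01) the ratios were alike, and for Slc34a1 (1.85 and 2.71) the order was the other way. With 1 such library per genotype, these differences have no replicate check and were not tested. Genes listed as androgen-linked, led by Cyp4b1, summed to 4536 CPM in TA 3, 3016 CPM in CCNE-TA 3 and 463 to 1053 CPM in the others.

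**Figure D3:**
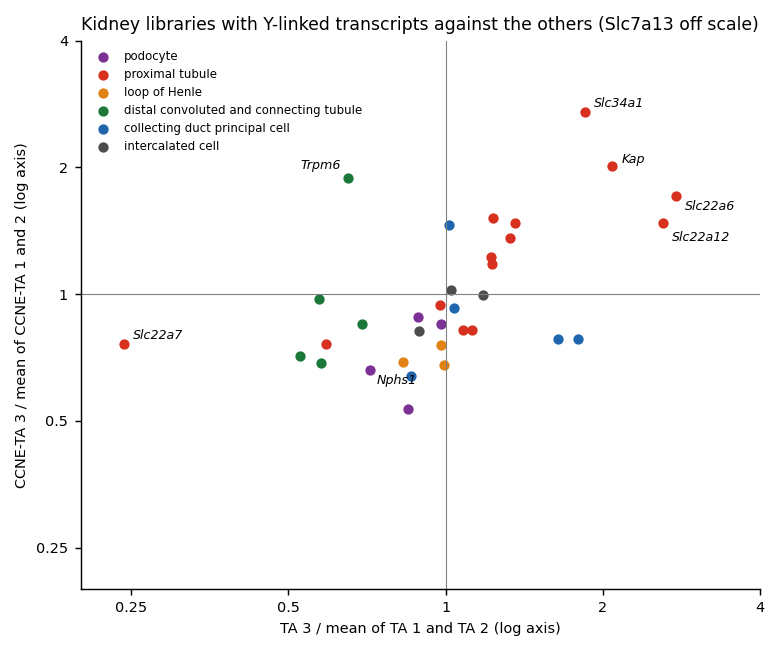
Ratio of the kidney library with Y-linked transcripts to the mean of the other 2 libraries of its genotype, for TA on the horizontal and CCNE-TA on the vertical log axis, 1 point per marker, coloured by segment. Slc7a13 is off scale at 377 and 136, and Slc22a7 lies far to the left at 0.242 and 0.762.

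In liver, 21 members passed the filter and 3 passed the edgeR test (14.3%, against 28.5% of all tested genes). The CCNE-TA livers held Podxl at 2.29 ± 0.213 CPM against 6.09 ± 2.24 CPM in TA livers (log2 fold change -1.41 ± 0.32, edgeR adjusted p = 0.0166), and Aqp1 at 23.8 ± 7.77 against 74.7 ± 17.4 CPM (-1.65 ± 0.27, edgeR adjusted p = 0.00663). Both fell. Endothelial genes summed to 107 to 149 CPM in CCNE-TA livers and to 155 to 203 CPM in TA livers. Of the 6 listed, Pecam1 (log2 fold change -1.12), Kdr (-2.33) and Cdh5 (-1.06) fell (edgeR adjusted p = 0.00745, 0.00277 and 0.0116), while Plvap had 0.33, Ehd3 -0.45 and Emcn -0.68. Their part in the fall of Podxl and Aqp1 was not tested. Atp6v0d2 rose, from 6.87 ± 1.99 to 22.2 ± 13.5 CPM (1.69 ± 0.53, edgeR adjusted p = 0.0488), with 26.8 and 32.8 CPM in CCNE-TA 1 and 2 but 6.99 CPM in CCNE-TA 3, within the TA range. The liver groups also differed in sex markers: Y-linked genes summed to 73.3 CPM in CCNE-TA 3 and to 116 and 118 CPM in TA 2 and TA 3, and to at most 0.127 CPM in the other 3 livers. With Xist as a covariate, an alternative added after the data were seen, Aqp1 and Podxl kept their calls (edgeR adjusted p = 0.0177 and 0.0457), Atp6v0d2 did not (0.294), and 19.2% of all genes were called. Aqp1 was the only member called without CCNE-TA 1 (10.8% of all genes called) or without TA 2 (12.8%), and Atp6v0d2 was called without CCNE-TA 3 but not without any other single liver. Without TA 1, 12 of 22 members were called (54.5%, against 17.6% of all genes), Kap, Umod and Aqp2 among them. Kap had 865 counts in liver TA 1 and 0 in TA 2 and TA 3, beside 898, 558 and 835 in CCNE-TA 1, 2 and 3. These are the low levels of kidney transcripts described below, and their part in the calls was not tested. In lung, 24 members passed the filter and 0 passed the test, by DESeq2 also 0 (against 0.00594% of all tested genes by edgeR). Ccne1 stood at 88.8 ± 32.1 against 3.59 ± 2.49 CPM there, with an edgeR adjusted p of 0.897. The lack of called members in lung therefore does not exclude a difference. Slc26a4 reached 71.4 CPM in lung CCNE-TA 1, while the other 5 lungs ranged from 3.17 to 4.60 CPM.

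Kidney transcripts were also found at a low level in some livers. Expression by liver cells and transcripts that came from kidney tissue or kidney libraries cannot be told apart here. Of the members, 22 had at most 3 counts in liver TA 2 and in liver TA 3, a set chosen from these values. Their summed level was 0.0602%, 0.0332% and 0.0715% of the TA kidney level in liver CCNE-TA 1, 2 and 3 and 0.0354% in liver TA 1, against 0.000236% and 0.000298% in TA 2 and TA 3. Adrenal genes summed to 64.01 CPM in liver CCNE-TA 2 and to 1.14 to 3.59 CPM in the other 5 livers. The share was of the same order in proximal, loop and principal cell genes: in liver CCNE-TA 1 it was 0.0553% for Kap, 0.0564% for Umod and 0.0515% for Aqp2. Liver CCNE-TA 1 held 8 counts of Slc7a13 beside 898 of Kap, whereas kidney CCNE-TA 1 held 89 beside 297264 and kidney CCNE-TA 3 held 13934 beside 901886. Liver TA 3 held 2 counts of Slc7a13 and 0 of Kap. Lung CCNE-TA 3 held Kap at 13.7 CPM (0.0333% of the TA kidney level), Slc34a1 at 0.104% and Miox at 0.0403%, but Umod at 0.00561%, within the range of the other lungs, and Slc12a1 at 0.0035%, below them. Kap was at 0 in 4 of the other 5 lungs and at 8 counts in CCNE-TA 2.

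**Figure D4:**
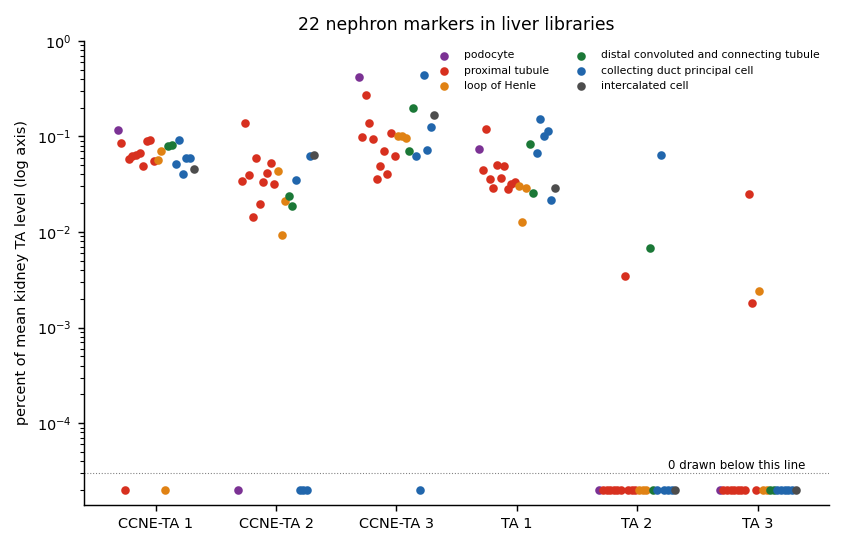
Level of 22 nephron markers in each liver library as a percentage of their mean level in TA kidneys, on a log axis, 1 point per marker, coloured by segment, with values of 0 drawn below the dotted line. The median marker is at 0.061%, 0.0323% and 0.0973% in CCNE-TA 1, 2 and 3, at 0.0363% in TA 1 and at 0 in TA 2 and TA 3.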

How the data were processed

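The authors deposited raw read counts for each symbol and library, not normalized; 0 columns were left out. Per the submitters' processing notes, the tools were TopHat2 2.0.14, Bowtie2 2.2.6 and featureCounts 1.4.6 on mm10; the annotation, the strand setting and the treatment of reads with several alignments are not given in the sources used here. Across the 18 libraries, 64.2% to 71.2% of counts from 1 to 20 were even, so a count is not 1 molecule.

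Kidney, liver and lung were modelled separately in edgeR 4.0.16 under R 4.3.3 (filterByExpr, TMM, glmQLFTest with robust dispersion, CCNE-TA minus TA, Benjamini-Hochberg adjustment over all tested genes, threshold 0.05). An SE is the log2 fold change divided by the root of its F value. P values measure the spread between these libraries; whether numbers mark separate mice is not given. Numbered pairs in kidney come from the data: each library correlated best with its own number. Lengths and positions are from GENCODE M21 on mm10. The edgeR step was tested on simulated kidney counts with 4-fold changes, where it found 159 of 194 changed genes (82%) with 14 false calls. Smaller changes were not simulated. Members and lists were chosen with earlier results of these data known. All members are named with values; of further markers, the first 2 by p in each segment (1 is not reported here); of other lists, the gene with the highest mean. Genes named in liver and lung were chosen after their values were seen. Alternatives were DESeq2 1.42.0, limma-voom (limma 3.58.1), other scalings, no filter, 1 fit of 18 libraries, the replicate block, Xist as a covariate, and each library left out; the fit of the 4 kidneys without Y-linked transcripts and Xist as a covariate in liver were added after the data were seen.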

Additional observations from a re-analysis of the deposited data

Results flagged for a closer look

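The difference of the genotype effect between kidney and liver was tested as an interaction in 1 edgeR fit of all 18 libraries. Of 17155 genes, 1634 passed. Among the 35 members, all tested in this fit, those that passed were Podxl, Aqp1 and Slc12a1. The share of members was thus near that of all genes. The sex markers of the liver groups were unequal, and their part in these differences was not tested. For Podxl the difference was 1.52 on the log2 scale (edgeR adjusted p = 0.0423), with 0.10 in kidney and -1.41 in liver. For Aqp1 it was 1.89 (edgeR adjusted p = 0.0292), with 0.24 in kidney and -1.65 in liver. For Slc12a1 it was -3.61 (edgeR adjusted p = 0.0486), with -0.27 in kidney. This gene did not pass the filter on low counts in liver, where no library held more than 25 counts, so no liver value is given for it. Between kidney and lung, 1 gene of 17155 passed and 0 members did.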

How the results depend on the processing

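TMM, RLE and upper quartile scaling each gave 2 kidney genes and 0 members called, and 3 members without overlap. Kidney calls numbered 26 with DESeq2, with 1 member (Slc22a8), 3 with the replicate block or with Xist as a covariate, and 1 in the 4 kidneys without Y-linked transcripts; they numbered 2 without CCNE-TA 1 and 1 without any other single library. The block called 0 members and 0 further markers, so it changed no call of a member. Members called in liver numbered 7 of 24 with DESeq2 (29.2%, against 32.3% of all genes) and 1 to 12 with 1 library left out, where 10.8% to 32.3% of all genes were called. With 1 kidney left out, the median ranged from -0.60 to -0.12 for the loop, from -0.80 to -0.056 for distal genes and from -0.27 to 0.14 for principal cell genes; the loop median was -0.21 in the 4 kidneys without Y-linked transcripts.

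Some log2 fold changes that passed no threshold changed sign. Slc22a7 had 0.20 with limma-voom, 0.15 with the block and 0.22 with Xist as a covariate. Slc7a13 had 0.72 with limma-voom, 0.16 with the block and 0.86 in the 4 kidneys without Y-linked transcripts. In those 4 kidneys, Trpm6 had -0.30, Aqp3 0.42, Scnn1b -0.11, Scnn1g 0.086, Hsd11b2 0.022 and Atp6v1g3 0.038. Aqp3 had 0.0099 with the block and 0.0015 with Xist as a covariate. With 1 kidney left out, the range was -0.40 to 0.026 for Nphs1, -0.19 to 0.33 for Podxl, -0.24 to 0.51 for Wt1 and -0.10 to 0.19 for Synpo. It was -0.67 to 0.35 for Slc34a1, -0.34 to 0.19 for Slc5a2, -0.22 to 0.91 for Slc5a12, -0.52 to 0.36 for Slc22a7, -0.88 to 0.074 for Slc22a12, -6.10 to 6.38 for Slc7a13 and -0.38 to 0.014 for Lrp2. It was -0.60 to 0.0031 for Slc12a1, -0.27 to 0.0066 for Kcnj1, -0.12 to 0.74 for Trpm6 and -0.32 to 0.87 for Calb1. It was -0.32 to 0.31 for Aqp3, -0.11 to 0.30 for Scnn1b, -0.46 to 0.16 for Scnn1g, -0.27 to 0.15 for Hsd11b2 and -0.27 to 0.13 for Atp6v1g3. The cause of these changes was not tested. Slc22a8, Kap, Egf and Pvalb were lower in CCNE-TA under every alternative run. They were named for a low unadjusted p in these same libraries, which every alternative reused in whole or in part. A kept sign is therefore no independent check.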
